A study of Mus musculus with 34 samples.

Results

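Open chromatin was compared between cultured hair follicle stem cells (HFSCs) that lacked Rxra and were given apoptotic corpses (labelled Rxra cKO, corpses; n = 3 libraries) and Rxra cKO HFSCs that were given a mixture of arachidonic acid (AA), lysophosphatidylcholine (LPC) and retinoic acid (RA) (labelled Rxra cKO, Recombinant AA+LPC+RA, called the mix here; n = 2 libraries). The 5 libraries were chosen by their titles, out of 34 in the series. All 5 came from mouse HFSC lines carrying Sox9-creER, R26-YFP and Rxra fl/fl, made from telogen skin and grown on inactivated fibroblast feeder cells, in which 4-hydroxytamoxifen was used to switch on Cre and YFP+ cells were sorted. Both groups therefore carried the Rxra deletion, the Cre and the tamoxifen treatment, and by their labels they differed in the stimulus. Their libraries also differed in fragment length and estimated depth, as given below. Corpses were mTomato+ HFSCs without Cre, whose own Rxra was intact, killed with cisplatin, and the mix held 9-cis and all-trans RA. The labels do not say whether the replicates came from separate cultures or animals, and the p-values given cover no more than the spread among these libraries, part of which may be technical.

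RXRα is a nuclear receptor that pairs with other receptors, among them the RARs, which bind RA, and the pair sits on direct repeats of a short DNA half-site. Dying cells release LPC and fatty acids such as AA, and healthy neighbours that take up corpses use receptors and bridging proteins (Mertk, Axl, Mfge8, integrin αvβ5), a phagocytic cup of actin, and phagosomes that mature into lysosomes. With Rxra deleted in both groups, the comparison asks how whole corpses and this defined set of lipid and retinoid ligands differ in the chromatin they leave open when RXRα itself is missing. ATAC-seq measures this with a transposase that cuts and tags open DNA, and each peak is a stretch with more fragments than its surroundings. Regions outside promoters in epidermal cells often carry the AP-1 motif TGANTCA, bound by dimers of Jun and Fos proteins.

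Short stretches of the reference genome (GRCm39, also called mm39, plus strand, 5′ to 3′) show the motifs that the results turn on. The first 4 lie in regions with a higher fold enrichment under corpses and carry the AP-1 motif, which is in capitals. They are in an intron of Rapgef4 (chr2:71846575-71846641), upstream of Ccn2 (chr10:24457046-24457112), near Mfge8 (chr7:78810107-78810173) and in an intron of Prdx1 (chr4:116546729-116546795). The last lies upstream of Txnrd1 (chr10:82649958-82650158), in a region with a higher fold enrichment under the mix, and its capitals mark a core of the NRF2 motif (TGACNNNGC, here on the minus strand).
Rapgef4: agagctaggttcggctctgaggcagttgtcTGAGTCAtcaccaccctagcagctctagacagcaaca
Ccn2: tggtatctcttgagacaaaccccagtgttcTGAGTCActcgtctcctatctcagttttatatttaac
Mfge8: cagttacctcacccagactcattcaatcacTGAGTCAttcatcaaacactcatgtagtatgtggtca
Prdx1: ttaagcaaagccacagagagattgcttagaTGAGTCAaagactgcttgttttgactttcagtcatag
Txnrd1: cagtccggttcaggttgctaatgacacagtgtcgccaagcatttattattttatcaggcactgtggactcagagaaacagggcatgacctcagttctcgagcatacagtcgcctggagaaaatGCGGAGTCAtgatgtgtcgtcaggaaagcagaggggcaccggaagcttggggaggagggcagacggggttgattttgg

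Both motifs were common. Among 67803 regions outside promoters, 43.2% held AP-1 and 13.3% held the NRF2 core in the 201 bases around the summit, on either strand, so a match by itself sets no region apart.

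The corpse libraries held 121591, 77784 and 129876 peaks, and the mix libraries 66678 and 58277. Read counts are not in these lists, but the fold and the −log10 p at each summit together fix a whole number of fragments there, the pileup, and a local background. Pileups printed below are as recovered and were not scaled between libraries. The lowest background was 0.804, 0.365 and 0.893 fragments per base under corpses and 2.481 and 1.818 under the mix. The depth estimated from the lowest background was 18600000, 8430000 and 22300000 fragments in the corpse libraries and 33900000 and 25600000 in the mix libraries. The shortest peak, which the peak caller sets to the fragment length it found, was 81, 81 and 75 bp under corpses and 137 and 133 bp under the mix. The median peak was likewise 176, 171 and 166 bp wide under corpses and 381 and 371 bp wide under the mix. Every corpse library thus had a shorter fragment length and a lower estimated depth than either mix library, and in these 5 libraries the stimulus, fragment length and depth cannot be told apart. Corpse library 3 carries the tag Phago inside its stored peak names and the other 4 libraries NonPhago.

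Peaks at the starts of HFSC and basal keratinocyte genes were present, including Krt5, Krt14, Krt15, Trp63 and Sox9. Of 10 such promoters, 8, 9 and 6 were listed under corpses and 9 and 9 under the mix. Feeder fibroblast promoters were listed for 1, 2 and 1 of 11 genes under corpses and for 3 and 3 under the mix. Summed folds, here and for leukocytes, count listed promoters only. For fibroblasts they were 9.96, 14.1 and 7.66 under corpses and 22.1 and 16.8 under the mix. Called peaks below the list were left out of these sums. They had folds of 8.49 and 6.65 at Col1a1 in corpse libraries 1 and 3, and of 3.66 and 5.81 at Twist1 in corpse libraries 2 and 3. Leukocyte promoters were listed for 2, 3 and 3 of 11 genes under corpses and for 2 and 2 under the mix, with summed folds of 25.7, 27.0 and 40.3 and of 16.9 and 17.5. Neither Col1a2, Dcn and Lum nor Ptprc, Adgre1, Itgam and Spi1 had a promoter peak in any of the 5 libraries. Fibroblast promoters were thus listed more often under the mix, and their part in the results was not tested.

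**Figure D1:**
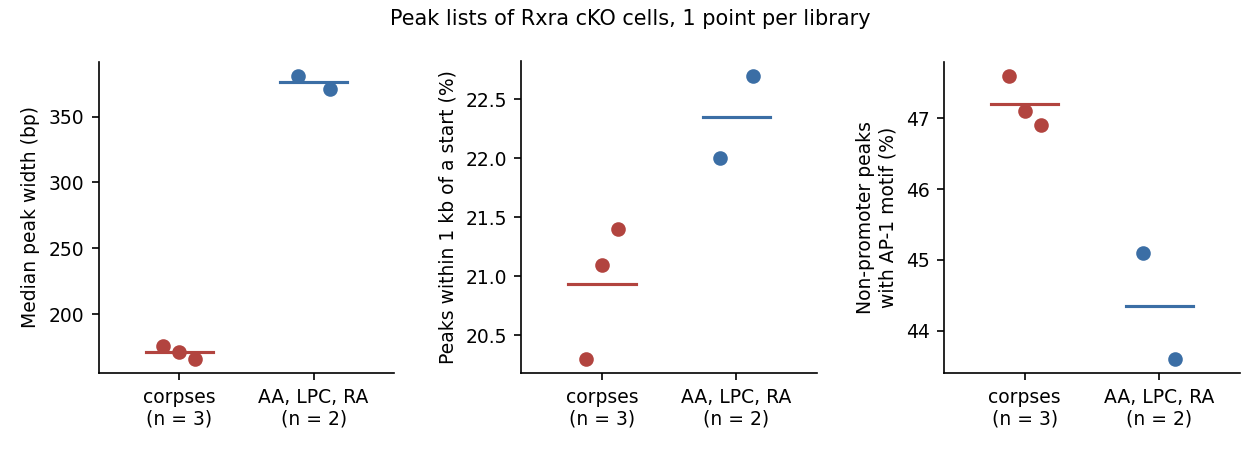
Each point is 1 library, with corpses (n = 3) left of the AA, LPC and RA mix (n = 2), and lines are means. The panels give the median peak width in bp, the share of the 58134 best peaks within 1 kb of a transcription start, and the share of the remaining peaks with an AP-1 motif; the groups do not overlap in any panel, and the vertical axes do not start at 0.

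The best 58134 peaks of each library, by −log10 p, were compared so that depth did not set the number of peaks. The libraries resembled each other within a stimulus. The Jaccard index, the shared part of 2 lists over their union, was 0.714, 0.718 and 0.675 between corpse libraries and 0.741 between the mix libraries, against 0.623 to 0.673 between a corpse and a mix library. The mean within groups exceeded the mean between groups by 0.0659 (one-sided exact permutation p = 0.1, the smallest that 3 against 2 libraries allow).

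Fewer corpse peaks were at promoters and more of the others held AP-1. Peaks within 1 kb of a transcription start made up 20.3%, 21.1% and 21.4% under corpses and 22.0% and 22.7% under the mix (difference −1.42 percentage points). Outside promoters, AP-1 was found in 47.6%, 47.1% and 46.9% of corpse peaks and in 45.1% and 43.6% of mix peaks (difference 2.86 points). Neither pair of groups overlapped, and each two-sided exact permutation p was 0.1 (0.2 after Benjamini–Hochberg adjustment over 4 shares). With all called peaks in place of equal lists the AP-1 difference turned to −1.4 points. Direct repeats of a nuclear receptor half-site (AGGTCA and its variants with G in the first place, T in the third or both, spaced by 1, 2 or 5 bases) were rare, at 0.196%, 0.203% and 0.223% of corpse peaks and 0.22% and 0.232% of mix peaks (difference −0.0185 points, exact permutation p = 0.3, adjusted 0.4). Windows of genes of apoptotic cell clearance held 1.11%, 1.11% and 1.22% of corpse peaks and 1.18% and 1.17% of mix peaks (difference −0.0301 points, exact permutation p = 0.4, adjusted 0.4), and both of these pairs of groups overlapped.

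Merged, the 5 lists gave 81741 regions, of which 36252 (44.3%) had a peak in all 5. A region was called corpse-specific when all 3 corpse libraries and neither mix library listed it, and mix-specific when both mix libraries and no corpse library did. There were 2078 corpse-specific regions (2.54% of all) and 3663 mix-specific regions (4.48%). They lay in different places. Promoters made up 66 of the corpse-specific regions (3.18%), 1010 of the mix-specific ones (27.6%) and 16.9% of the others, and the median distance to a start was 33358, 12015 and 19632 bp. Corpse-specific regions were also narrow, with a median of 191 bp, against 420 bp for mix-specific and 365 bp for other regions.

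Many mix-specific regions had a weaker peak under corpses that fell below the list. A called peak of any rank was present in 80.8%, 36.7% and 80.5% of them in the 3 corpse libraries, while corpse-specific regions had one in 9.62% and 0.0% of cases in the 2 mix libraries. With no called peak of any rank in the other group, 1878 corpse-specific (2.3% of all regions) and 363 mix-specific regions (0.444%) were left, and 176 of those 363 (48.5%) were repeated sequence, in that most of their 25-base words occur more than once in the genome. Dropping repeated sequence and regions under 137 bp as well left 1572 corpse-specific regions, of which 45 (2.86%) were promoters and 729 of the other 1527 (47.7%) held AP-1. The same filters left 187 mix-specific regions, of which 113 (60.4%) were promoters and 16 of the other 74 (21.6%) held AP-1. The counts moved with the libraries used: 3588 and 3477 corpse-specific regions without corpse library 2 or 3, 4155 and 4291 without mix library 1 or 2, and 8750 and 10130 mix-specific regions without mix library 1 or 2. With peaks under 137 bp dropped from every list, 1141 corpse-specific and 2578 mix-specific regions remained.

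Among all specific regions outside promoters, AP-1 was in 892 of 2012 corpse-specific regions (44.3%), 737 of 2653 mix-specific regions (27.8%) and 43.9% of the others. The motif was therefore scarcer in mix-specific regions, while corpse-specific regions resembled the rest. A grainyhead motif (AACNGGTT), for factors that act in epidermal barrier formation, was in 4.17%, 2.19% and 2.97% of these sets, and a FOX motif (GTAAACA) in 3.48%, 1.62% and 2.99%. The GC-rich KLF/SP motif (GGGCGG) was in 4.87%, 8.03% and 5.64%, and the ETS motif (CCGGAA) in 1.79%, 3.51% and 2.91%. Retinoid direct repeats were in 2 corpse-specific regions (0.0994%) and 8 mix-specific regions (0.302%), against 0.233% of the others. Windows for motifs have 1 length but were centred on summits from lists of unequal fragment length, whose part in these shares was not tested.

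The strongest corpse-specific regions were unlike the rest of that set. Outside promoters, 27 had a mean summit pileup over 50 fragments. Their median width was 119 bp, 21 were narrower than any mix peak, none (0.0%) held AP-1, 11 lay within 100 kb of the first assembled base of chromosome 9, and in 26 (96.3%) at least 10% of the 25-base words recurred in the genome. Of the other 1985, 892 (44.9%) held AP-1, 351 (17.7%) had that many recurring words, and the median width was 192 bp. The best-ranked region, 12629 bp from the start of Abcb11 (chr2:69185882-69186009), a bile salt exporter, had pileups of 1426, 1098 and 1486 under corpses and no peak under the mix. Of its words 74.58% were repeated and 59.32% occur in the mitochondrial genome. In cells with Rxra intact (Rxra WT) given the mix, 1 library had a pileup of 1872 there and the other no peak. Of the 10 best-ranked corpse-specific regions, 5 and 2 had a peak in these Rxra WT mix libraries. Near Tyrp1 (chr4:79922135-79922220) the pileups were 521, 396 and 520 under corpses, in a region only 86 bp wide. No mix library of either genotype had a peak there, and 44.63% of its words occur in the mitochondrial genome. In cells kept in medium, cKO library 1 had no peak there. Libraries cKO 2, WT 3 and WT 4 had pileups of 552, 624 and 493 and shortest peaks of 201, 207 and 195 bp. Such regions are shorter than the fragments of the mix libraries and hold sequence that occurs elsewhere, so their absence from the mix lists cannot be told apart from fragment length and alignment. A region of unique sequence and greater width, 367179 bp from Adamts5 (chr16:86065805-86065991, 187 bp), which encodes an aggrecan-cleaving protease, had pileups of 46, 21 and 48 under corpses and no called mix peak.

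**Figure D2:**
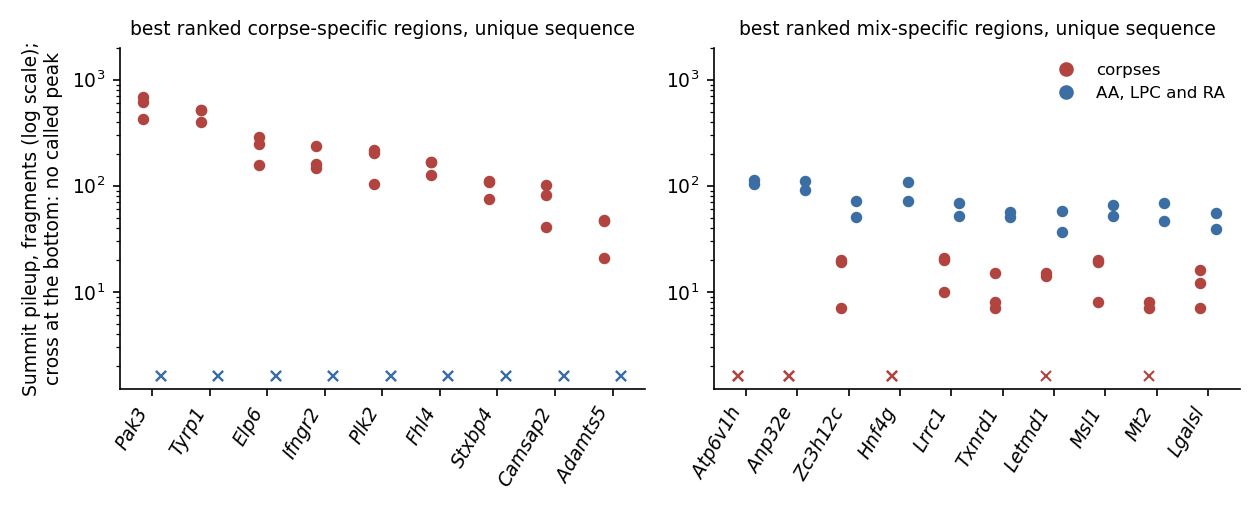
Summit pileup in fragments, on a log axis, in each library for 9 of the 10 best-ranked corpse-specific regions (left) and the 10 best-ranked mix-specific regions (right) in which under 50% of words recur in the genome; a cross marks libraries with no called peak, and overlapping crosses are drawn once. Corpse pileups span 21 to 693 in the left panel with no mix peak, and mix pileups span 37 to 114 in the right panel, where several regions keep a weak corpse peak.

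The best-ranked mix-specific regions were of 3 kinds. Of the 10 best by rank, the 8 near Thsd7b, Lrrc4c, Atg16l1, Zfp804a, Cntnap5b, Itih5, Naaladl2 and Actr3 were repeated sequence (76.84% to 100% of words). A second kind was unique sequence with no called corpse peak. The promoter region of Anp32e (chr3:95837340-95837596), a chaperone that removes the histone variant H2A.Z, had pileups of 112 and 92 under the mix and none under corpses, and a region 87489 bp from Atp6v1h (chr1:5240843-5240985) had 114 and 104 and none. The promoter of Map1s (chr8:71358581-71359335), a microtubule-associated protein, had 39 and 34, and that of Mmp15 (chr8:96078826-96079897), a membrane-bound matrix protease, 36 and 28, again with no corpse peak. The third kind had weak corpse peaks. At the promoter of Mt2 (chr8:94898939-94899862), a metallothionein that binds zinc and copper, pileups were 8, 7 and no peak under corpses and 69 and 46 under the mix. The 201 bases around its summit held 4 copies of the core of the metal response element (TGCNCNC), and 209 of 13938 promoter regions (1.5%) held 4 or more. Upstream of Txnrd1 (chr10:82649867-82650389), thioredoxin reductase, pileups were 15, 7 and 8 under corpses and 51 and 57 under the mix. Lrrc1 (21, 10 and 20 under corpses, 69 and 52 under the mix) and Zc3h12c (19, 7 and 20, against 72 and 51), both at promoters, behaved alike. No corpse pileup reached a mix pileup at these 4, but pileups were not scaled and the mix libraries were deeper by estimate. Folds also did not overlap but lay nearer. They were 8.22, 5.4 and 4.41 against 8.61 and 11.5 at Txnrd1, and 6.45, 4.75 and 5.94 against 8.37 and 8.74 at Lrrc1. At Zc3h12c they were 5.66, 3.8 and 5.92 against 9.52 and 8.66, and at Mt2 3.93, 4.61 and no peak against 8.55 and 8.61.

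Presence or absence misses graded change, so the deposited fold enrichments were compared in the 45829 regions with a called peak in all 5 libraries. Folds were taken as log2 values and brought to the same distribution in each library, since before this step the median region was 0.422 log2 units higher under corpses. The median log2 pileup difference before normalisation was −0.53. With limma and Benjamini–Hochberg adjustment, 605 regions (1.32%) were higher and 711 (1.55%) lower under corpses at an adjusted p under 0.05. The 2 directions separated by place. Of 11162 promoter regions, 17 were higher (0.152%) and 589 lower (5.28%), with a median difference of −0.22. Of 34667 regions outside promoters, 588 were higher (1.7%) and 122 lower (0.352%), with a median of 0.07. Outside promoters, AP-1 was in 344 of the 588 higher regions (58.5%), in 22 of the 122 lower ones (18%) and in 48.2% of all tested, and KLF/SP motifs were in 3.23%, 18.9% and 6.49%. TEAD motifs (GGAATG) were in 22.8%, 5.74% and 22.2%.

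Width followed the same division. The median higher region was 358 bp wide, the median lower region 946 bp and the median tested region 559 bp. In the narrowest of 5 equal width classes 295 regions were higher and 21 lower, and in the widest 6 were higher and 430 lower. In the widest class 406 of 6227 promoters (6.52%) and 24 of 2898 other regions (0.828%) were lower, whereas in the narrowest class the shares were 0.248% and 0.227%. The counts rested on both mix libraries and on corpse library 1, since 27 higher and 7 lower were called without mix library 1, 14 and 9 without mix library 2, 35 and 75 without corpse library 1, and 922 and 1079 without corpse library 2. Without corpse library 3, the one with the Phago tag, they were 484 and 723, so that 40.1% rather than 46% of calls were higher. On recovered pileups the split was 1454 higher and 2531 lower (36.5% higher), and on pileups centred on the median 1616 and 6732 (19.4% higher), so the balance of directions depended on the scale.

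**Figure D3:**
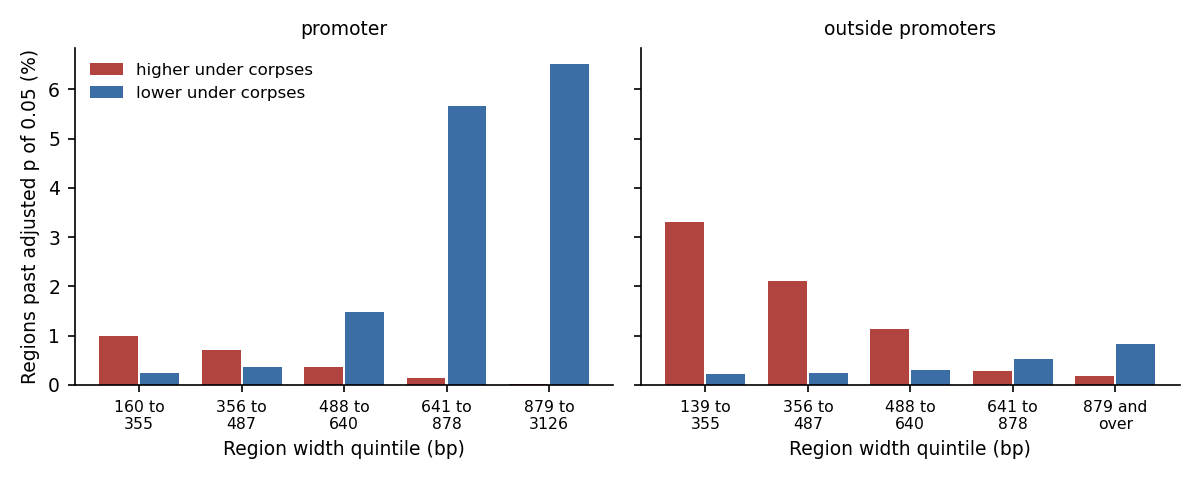
Share of regions (%) with an adjusted p under 0.05 (limma, Benjamini–Hochberg), higher or lower under corpses than under the mix, by 5 equal classes of region width in bp, for promoters (left) and other regions (right). Higher calls fall with width outside promoters (3.3% in the narrowest class, 0.173% in the widest) and lower calls grow with width at promoters (0.248% and 6.52%).

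Srxn1 was among the higher regions of unique sequence with the smallest p. Srxn1 encodes sulfiredoxin, which restores over-oxidised peroxiredoxins, and the region (chr2:151953901-151954232) lay in its last, untranslated exon, 6660 bp from the start. Its folds were 26.0, 22.8 and 27.6 under corpses and 10.2 and 8.69 under the mix. The normalised log2 difference was 1.01 (SE 0.137, limma adjusted p = 5.81e-04), and it stayed past the threshold when any library was left out (adjusted p up to 0.0222).

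An intron of Rapgef4 (chr2:71846427-71846676), an exchange factor that couples cyclic AMP to Rap, had folds of 17.2, 14.0 and 22.0 under corpses and 5.17 and 4.61 under the mix (log2 difference 1.43, SE 0.205, limma adjusted p = 0.00115). A region 289436 bp from Aasdhppt (chr9:4020078-4020483) had 18.7, 13.6 and 20.2, against 4.6 and 4.61 under the mix (1.5, SE 0.203, adjusted p = 5.81e-04). A region 66503 bp from Postn (chr3:54351312-54351716), which encodes the matrix protein periostin, had 24.2, 17.1 and 26.1, against 7.76 and 8.52 (1.02, SE 0.154, adjusted p = 0.00193). No corpse value at these regions came near a mix value, and all 3 calls, with Srxn1, held under each of 12 alternatives.

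The promoter of Ugt1a1 (chr1:88139473-88140073), which conjugates bilirubin and shares its later exons with the other Ugt1a genes, was 1 of the 17 promoters that rose. Its folds were 25.1, 18.9 and 29.4 under corpses and 10.2 and 7.49 under the mix (log2 difference 1.04, SE 0.152, limma adjusted p = 0.00142), and without mix library 2 the adjusted p was 0.0609. Introns of Cntnap4 (1.27) and Plxdc2 (0.98), an intron of P2ry10b (1.08), and regions far from Tmem232 (1.08) and Robo1 (1.11), a Slit receptor, were also higher, with adjusted p from 0.00163 to 0.0058. Each of these 5 was lost without mix library 1, 2 or both, at adjusted p from 0.0609 to 0.114. Regions near Fmr1 (1.81, adjusted p = 1.01e-05) and Spata31e5 (1.16, adjusted p = 0.00401) rose too but were repeated in 66.67% and 54.24% of their words.

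**Figure D4:**
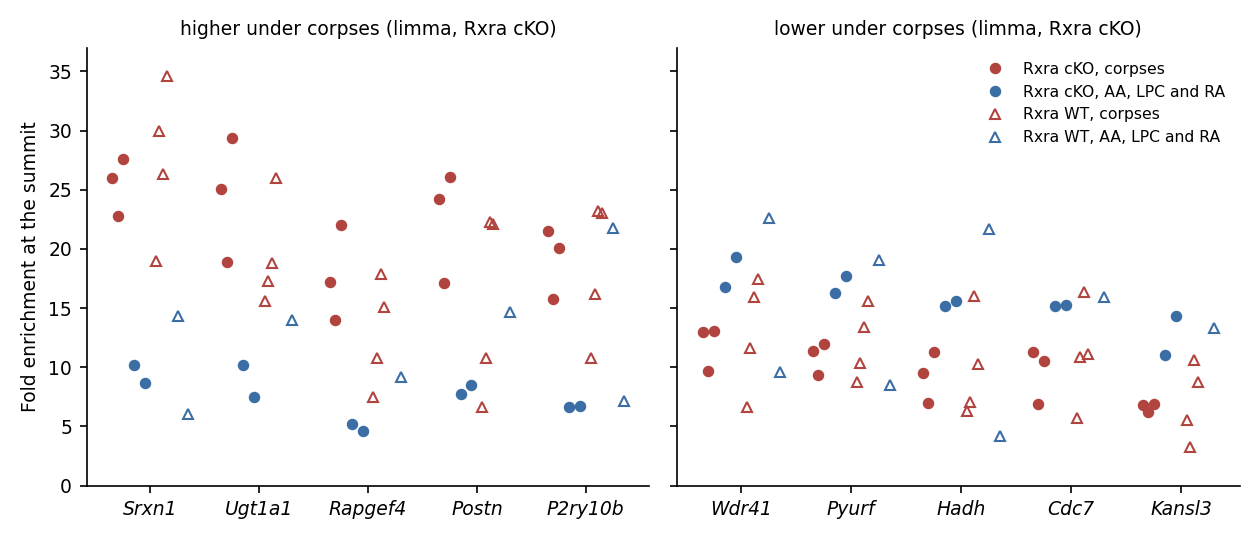
Fold enrichment at the summit, as deposited and before normalisation, for 5 of the best regions of unique sequence that were higher (left) and 5 that were lower (right) under corpses in Rxra cKO cells. Filled points are Rxra cKO libraries, corpses (red) left of the mix (blue), and open triangles Rxra WT libraries in the same order; the cKO groups do not overlap at any of the 10, whereas Rxra WT values overlap at several.

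Among the lower regions of unique sequence, 2 intergenic regions had the smallest p. One lies 179025 bp from Arhgef26 (chr3:62066472-62066911), and had folds of 28.6, 23.3 and 23.3 under corpses and 44.6 and 43.9 under the mix (log2 difference −1.31, SE 0.0995, limma adjusted p = 1.14e-07). This call was kept under every one of 12 alternatives. The second (log2 difference −0.86, SE 0.0744, adjusted p = 7.57e-07) was kept under 11 of 12. The other 8 of the 10 smallest p-values in unique sequence belonged to promoters.

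The promoter of Hadh (chr3:131064876-131066039), a mitochondrial enzyme of fatty acid β-oxidation, had folds of 9.5, 6.96 and 11.3 under corpses and 15.2 and 15.6 under the mix (−1.18, SE 0.198, adjusted p = 0.00604). The promoter of Cdc7 (chr5:107111788-107112928), a kinase that fires replication origins, had 11.3, 6.9 and 10.5, against 15.2 and 15.3 (−1.13, SE 0.195, adjusted p = 0.00694). Kansl3 (chr1:36407583-36408530), part of the NSL histone acetyltransferase complex, had 6.78, 6.19 and 6.94, against 11.0 and 14.3 (−1.31, SE 0.231, adjusted p = 0.00756). Promoters of Wdr41 (−1.02), Pyurf (−1.07), Ascc3 (−0.97) and the cytokine Il17d (−1.43) fell as well, with adjusted p from 0.00401 to 0.00682. These 7 promoter calls were lost without mix library 1 (adjusted p 0.0632 to 0.136) and without mix library 2 (0.14 to 0.262). Of the 10 smallest p-values among lower regions, 8 belonged to repeated sequence (79.1% to 100% of words), for example near Slc10a2 (folds 4.44, 5.86 and 7.4 under corpses, 26.0 and 21.3 under the mix).

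Genes of corpse clearance had changed regions in both directions. In the windows of 20 apoptotic cell receptors (50 kb upstream to 5 kb downstream of the gene), 5 of 140 regions were corpse-specific (3.57%, against 2.54% of all) and 8 mix-specific (5.71%, against 4.48%). Across the bridging and eat-me proteins, the phagocytic cup, phagosome maturation and lysosome lists, corpse-specific shares were 2.17%, 2.8%, 1.05% and 2.96% and mix-specific shares 8.7%, 3.85%, 4.19% and 2.96%. In the same order and with the receptors first, limma called 1 of 82, 1 of 56, 0 of 169, 1 of 109 and 0 of 124 regions higher and 1, 0, 2, 3 and 1 lower. Over all regions the rates were 1.32% higher and 1.55% lower, and among promoters 0.152% and 5.28%. The median log2 differences were 0.04, −0.08, −0.05, −0.07 and −0.06, against 0.00 over all regions.

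Itgb5, the β-subunit of the receptor that binds Mfge8, had regions of both kinds. Its promoter (chr16:33649607-33650920) had folds of 4.84, 4.62 and 6.16 under corpses and 7.9 and 7.77 under the mix (−1.02, SE 0.239, limma adjusted p = 0.0259). An intron region far downstream of this promoter, 12739 bp from the nearest annotated transcript start (chr16:33699472-33699688), had pileups of 27, 18 and 33 under corpses and no peak under the mix. Near Mfge8 (chr7:78810037-78810314), which bridges phosphatidylserine to integrins, folds were 18.9, 18.5 and 22.7 under corpses and 9.77 and 9.93 under the mix (0.61, SE 0.156, adjusted p = 0.0377). An intron of Lrp1, a large endocytic receptor, was higher as well (16.3, 8.45 and 16.3 under corpses, 4.53 and 5.84 under the mix; 0.91, adjusted p = 0.0403). The Itgav intron (20, 7 and 18) and a region near Anxa1 (28, 14 and 43), an annexin that binds phosphatidylserine, had pileups under corpses and no mix peak.

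The promoters of the TAM receptors Mertk and Axl did not pass the test, and that of Tyro3, without a peak in corpse library 2, was not tested. Mertk had folds of 16.6, 9.69 and 17.2 under corpses and 9.92 and 11.1 under the mix (log2 difference 0.02, limma adjusted p = 0.967). The promoters of Axl (3.58, 5.61 and 6.56, against 4.96 and 6.43) and Tyro3 (7.24, no peak and 6.68, against 7.97 and 7.14) were among the 58134 best peaks only under the mix, and the Axl difference of −0.58 had an adjusted p of 0.236. Gas6, the bridging ligand of this family, had 6.53, 4.42 and 7.85, against 7.24 and 6.75 (−0.68, adjusted p = 0.121).

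Further along the path, promoters at the start of genes in the windows of the actin adaptors Dock2 and Crkl, of the autophagy and phagosome genes Becn1 and Rubcn and of the proton pump subunit Atp6v0d1 fell, with differences from −0.90 to −0.63. The starts nearest to these regions belonged to Spdl1, Snap29, Psme3, Lrch3 and Ripor1. A region in the Rab22a window rose (22.5, 14.6 and 19.2 under corpses, 8.31 and 9.28 under the mix; 0.67, limma adjusted p = 0.0343). The start nearest to it was that of Vapb. Corpse-specific peaks were seen in introns of Abl1 (24, 16 and 33), Wasl (34, 14 and 47) and Vps41 (46, 16 and 34) and at the Atp6v1a promoter (28, 7 and 24). The Hexa promoter (10, no peak and 15 under corpses, 44 and 29 under the mix) was mix-specific. All 10 clearance calls by limma were lost without mix library 1 (adjusted p 0.206 to 0.441), mix library 2 (0.216 to 0.443) or corpse library 1 (0.0555 to 0.154). Over the 27 lists, 40 regions were called, of which 39, 39, 38, 9 and 15 were lost without mix library 1, mix library 2 and corpse libraries 1, 2 and 3.

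Rxra itself and retinoid genes showed small differences. The Rxra promoter had folds of 13.9, 13.0 and 17.6 under corpses and 10.1 and 10.5 under the mix (log2 difference 0.11, SE 0.182, limma adjusted p = 0.791), and 20, 12 and 21 peaks were called in the gene under corpses and 10 and 10 under the mix. In the equal lists the order was the opposite, with 7, 8 and 6 peaks under corpses and 9 and 10 under the mix. Whether the floxed exon was lost cannot be read from peak lists. An intron region of Rxra (chr2:27625359-27625590; pileups 13, 6 and 15 under corpses, 21 and 17 under the mix) was mix-specific, and an intron region of Rarb (24, 10 and 24, no peak under the mix) corpse-specific. Of 6 RXR and RAR genes no region of 44 was called (all-region rates 1.32% higher and 1.55% lower). Rarg, the partner receptor in this tissue, had a promoter difference of −0.21 (adjusted p = 0.666).

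Of 155 regions of retinoid target and metabolism genes, 2 were corpse-specific (1.29%, against 2.54% of all) and 12 mix-specific (7.74%, against 4.48% of all and 9.62% around genes expressed in all cells). The promoter of Cyp26b1, which degrades RA, had pileups of 14, 6 and 12 under corpses and 30 and 30 under the mix and was among the best peaks only under the mix (log2 fold difference −0.65, limma adjusted p = 0.123). Its folds overlapped, at 5.94, 4.21 and 5.31 under corpses and 5.23 and 6.41 under the mix. Limma called regions of Crabp1, which carries RA in the cytoplasm (12.4, 7.77 and 10 under corpses, 14.7 and 12.6 under the mix; −0.88, adjusted p = 0.023) and the Ncoa7 promoter (10.9, 9.01 and 14.5, against 14.5 and 17.0; −0.88, adjusted p = 0.0173) lower. The promoter of Dhrs3, a retinaldehyde reductase, had folds of 9.84, 10.5 and 10.3 under corpses and no peak and 6.88 under the mix. Its pileups were 39, 24 and 40 under corpses and 49 in mix library 2, so the direction there depended on the measure.

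Lipid genes gave few calls. Of 71 tested regions around LXR, PPAR and lipid handling genes, 1 was lower and none higher (all-region rates 1.55% and 1.32%). This was the promoter of Madd, in the Nr1h3 window (−0.60, limma adjusted p = 0.0391). Of 73 around cholesterol synthesis genes, 1 was lower, the Nadsyn1 promoter in the Dhcr7 window (−0.71, limma adjusted p = 0.0154). None of 95 around genes for LPC and AA was called by limma. In this LPC and AA list 5 of 157 regions were corpse-specific (3.18%, against 2.54% of all) and 11 mix-specific (7.01%, against 4.48% of all). Of the lipid receptors, the Lpar1 promoter had pileups of 9, no peak and 11 under corpses and 22 and 28 under the mix. A region 28191 bp from Ptgs1, cyclooxygenase 1, had 25, 9 and 33 under corpses and none under the mix. The 4 calls of retinoid and lipid genes were lost without mix library 1 (adjusted p 0.145 to 0.319), mix library 2 (0.216 to 0.388) or corpse library 1 (0.0521 to 0.0589).

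Stress genes moved both ways. Of 97 tested regions of 18 NRF2 targets, 2 were higher and 2 lower (all-region rates 1.32% and 1.55%). Of 152 regions 3 were corpse-specific (1.97%, against 2.54% of all) and 13 mix-specific (8.55%, against 4.48% of all and 9.62% around genes expressed in all cells). Beside Srxn1, an intron of Prdx1 (chr4:116546645-116546876), the peroxiredoxin that scavenges peroxide, rose, with folds of 11.9, 9.17 and 6.31 under corpses and 3.1 and 2.97 under the mix (1.17, SE 0.27, limma adjusted p = 0.0245). The Txnrd1 region shown at the outset fell, with 8.22, 5.4 and 4.41 under corpses and 8.61 and 11.5 under the mix (−1.18, SE 0.261, adjusted p = 0.0208), and the Mt2 and Sqstm1 promoters were mix-specific. The second lower region is the Bax promoter, which lies in the window of Ftl1.

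Of 101 tested regions of p53 target and DNA damage genes, 5 were lower and none higher (all-region rates 1.55% and 1.32%, and 5.28% lower among promoters, to which 3 of the 5 belong). A coding exon of Gdf15 (chr8:71082189-71083137), a secreted stress factor, had folds of 5.33, 3.53 and 6.16 under corpses and 8.78 and 9.0 under the mix (−1.33, SE 0.25, limma adjusted p = 0.0105). The promoters of Bax, which opens the mitochondrial outer membrane (9.88, 7.78 and 8.23, against 9.99 and 13.3; −0.84, adjusted p = 0.0417), Zmat3 (−0.86, adjusted p = 0.0497) and the repair factor Xpc (−0.70, adjusted p = 0.0322) and a region near Trp53inp1 (−0.88, adjusted p = 0.0392) were the others. A region 669 bp from the start of the cell cycle inhibitor Cdkn1a was the reverse, with pileups of 32, 16 and 43 under corpses and no mix peak. Of 74 regions of unfolded protein and integrated stress genes 3 were lower (against 1.55% of all regions and 5.28% of promoters), each at a promoter. They lay in the windows of the chaperone Hspa5 (−1.23, limma adjusted p = 0.0105), Atf6 (−0.88, adjusted p = 0.0428) and Hspa1a with Hspa1b (−0.85, adjusted p = 0.0241). The starts nearest to the Hspa5 and Hspa1a regions belonged to Gapvd1 and Lsm2. Apart from Srxn1, the stress gene calls named here were lost without mix library 1 (adjusted p 0.099 to 0.364) or mix library 2 (0.183 to 0.54).

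No region of AP-1 and early response genes passed the test (0 of 113), although AP-1 motifs marked the higher regions. Over all regions 1.32% were higher and 1.55% lower. Unadjusted, limma gave 4398 higher and 4685 lower regions over all 45829. In this list 16 of 175 regions were mix-specific (9.14%, against 4.48% of all and 9.62% around genes expressed in all cells). Among them, with pileups not scaled between libraries, were the promoters of Myc (26, 14 and 30 under corpses, 82 and 57 under the mix) and Egr2 (21, no peak and 23, against 53 and 41) and a region 1281 bp from Junb (34, 16 and 34, against 74 and 71). Corpse-specific were an intron of Atf3 (35, 26 and 35, no mix peak) and a region near Egr2. The Fosl1 promoter had folds of 11.5, 8.61 and 11.5 under corpses and 7.41 and 9.77 under the mix (−0.15, adjusted p = 0.76).

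Inflammatory and interferon genes had scattered calls. Il1a (7.49, 5.46 and 7.61 under corpses, 10.7 and 7.81 under the mix; −0.88, limma adjusted p = 0.0468) and the promoter of Mto1 in the Cgas window (−0.78, adjusted p = 0.0467) had lower regions. Ifih1, an RNA sensor, had a higher region in a coding exon (21.3, 13.2 and 20.6, against 8.32 and 8.52; 0.68, limma adjusted p = 0.0345). The Mx1 window had a higher region too, at the promoter of Fam3b (1.01, limma adjusted p = 0.0374). Without mix library 2 these 4 had adjusted p from 0.271 to 0.456, and without mix library 1 from 0.128 to 0.438.

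Identity genes of HFSCs had few limma calls, where the all-region rates were 1.32% higher and 1.55% lower. Of 83 tested regions 1 was higher, 29649 bp from Cd34 (27.5, 20.9 and 21.7 under corpses, 12.4 and 12.1 under the mix; 0.54, SE 0.139, limma adjusted p = 0.0386), and none lower, while 12 of 150 regions were mix-specific (8.0%, against 4.48% of all) and 1 corpse-specific (0.667%, against 2.54%). Mix-specific were the promoters of Tbx1 (14, no peak and 19 under corpses, 45 and 26 under the mix) and Tcf7l2 (13, no peak and 11, against 39 and 29). In the epidermal list a region in the window of Ovol1, a repressor in epidermal differentiation, rose (0.62, limma adjusted p = 0.0377). The start nearest to it was that of Ap5b1. Ccn2, a matricellular target of YAP, had a distal region that rose (chr10:24456900-24457425; 21.3, 19 and 22.3, against 9.48 and 9.93; 0.70, SE 0.15, adjusted p = 0.0183) and a promoter that fell (5.85, 4.03 and 6.86, against 8.23 and 6.95; −0.95, adjusted p = 0.0384). Of 92 cell cycle regions 4 were lower and none higher (all-region rates 1.55% and 1.32%, and 5.28% lower among promoters). Among them was the Rb1 promoter (7.46, 6.59 and 7.75, against 11.1 and 9.84; −0.95, limma adjusted p = 0.0282). The calls in the windows of Cdk4 and Cdkn1b were at the promoters of Mettl1 and Gpr19. Without mix library 1 the calls of Cd34, Ovol1, Ccn2 and Rb1 had adjusted p of at least 0.193, and without mix library 2 of at least 0.183. Genes expressed in all cells, taken as a comparison, had 10 of 104 mix-specific (9.62%) and 1 corpse-specific region (0.962%), with 0 of 68 called, and the fibroblast list 5 of 31 mix-specific (16.1%) and none corpse-specific.

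Rxra WT cells, which played no part in choosing the regions, were given the same stimuli (corpses n = 4, mix n = 2). At 12957 peaks per library, the cKO corpse-specific regions held a peak in 3.03% ± 1.9 of cases in WT corpse libraries and 0.457% ± 0.102 in WT mix libraries (SD, n = 4 and 2; two-sided exact permutation p = 0.2). The cKO mix-specific regions held one in 0.075% ± 0.0408 and 3.64% ± 4.8 (exact permutation p = 0.067, the smallest possible, and 0.133 after adjustment over the pair). The WT mix mean for mix-specific regions came from 0.246% in library 1 and 7.04% in library 3. Both sets were found less often than the other regions, which lists this short made likely in advance. In the cKO libraries that listed them, median ranks were 39600, 40000 and 40500 for corpse-specific and 47100 and 45900 for mix-specific regions. For other regions they were 27200 to 27600. Other regions held one in 16.5%, 16.8%, 17.0% and 16.8% of cases in WT corpse libraries 1 to 4. In the WT mix libraries the shares were 17.0% and 14.0%. With all called peaks the difference for mix-specific regions turned to 9.45 percentage points. A list of 58134 peaks per library leaves out the small WT mix library 3. At this length 54.0%, 56.5%, 61.9% and 63.4% of corpse-specific regions were listed in WT corpse libraries 1 to 4 and 51.3% in WT mix library 1. For mix-specific regions the shares were 19.9%, 24.4%, 30.1% and 19.4%, against 48.5%. For other regions they were 59.1%, 62.2%, 66.5% and 64.5%, against 66.0%.

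Most of the limma calls had the same direction in Rxra WT cells. Of the 605 regions higher under corpses in cKO cells, 487 had a peak in WT corpses 1 to 4 and WT mix 1, and 358 of these (73.5%) had a higher mean under corpses. Of the 711 lower regions, 11 of 564 (1.95%) did, against 50.1% of all 36976. Promoters as a whole were less often higher under corpses in WT cells. Of the lower promoters 6 of 477 (1.26%) were, against 32.5% of all promoters, and of the higher regions outside promoters 347 of 471 (73.7%) were, against 56.5% of all regions there. WT corpse libraries 1, 2 and 4 had shortest peaks of 60, 80 and 76 bp, below the 104 bp of WT mix library 1. Estimated depths were 6260000, 11100000, 23300000 and 17600000 fragments in WT corpse libraries 1 to 4, and 30900000 in WT mix library 1. These differences run the same way as those between the cKO groups. Their part in the shared direction was not tested. WT corpse library 3 and WT mix library 1 have the same shortest peak, 104 bp. Between these 2 libraries, 455 of 555 higher regions (82.0%) and 71 of 707 lower regions (10%) were higher under corpses, against 46.6% of all 43427 and 25.9% of promoters, with 1 library each and no test. At Srxn1 the folds were 19, 30.0, 26.3 and 34.6 in WT corpse libraries and 14.3 and 6.07 in WT mix libraries, again with no overlap.

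**Figure D5:**
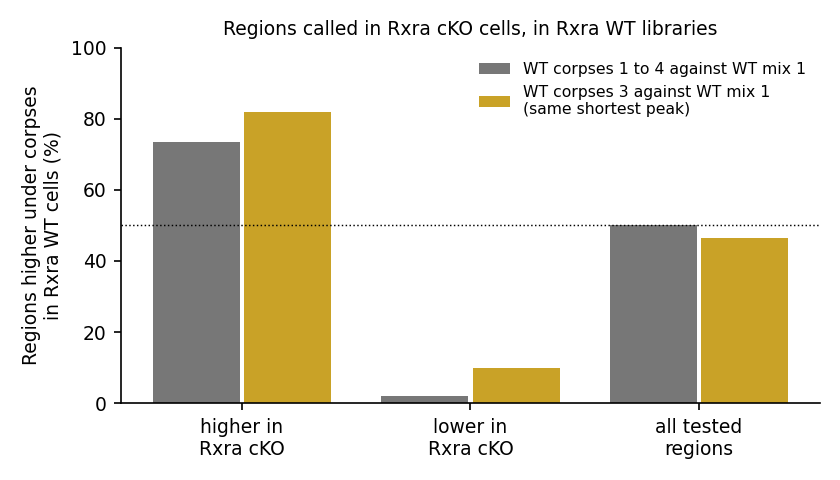
Share (%) of regions with a higher normalised fold under corpses than under the mix in Rxra WT libraries, for regions called higher, called lower or tested in Rxra cKO cells; the dotted line is at 50%. Grey bars compare the mean of 4 corpse libraries with mix library 1 (73.5%, 1.95% and 50.1%) and gold bars corpse library 3 with mix library 1 (82.0%, 10% and 46.6%).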

How the data were processed

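The authors aligned paired-end ATAC-seq reads to mm39 (BWA 0.7.18, SAMtools 1.17 and 1.9 per the labels) and called peaks with MACS3 3.0.0 in each library. The deposited lists hold, for every summit, a fold enrichment (ratio) with its −log10 p and q, and no read counts, so no count model was used. Peaks on chromosomes 1 to 19, X and Y were kept. The 58134 peaks with the highest −log10 p in each library were merged where they shared 1 base. Promoters lie within 1 kb of a GENCODE M39 start. Motifs were searched on both strands within 100 bases of summits. Regions were repeated where 50% of 25-base words recur in the genome. Log2 folds were quantile-normalised and fitted with limma 3.58.1 (trend, robust; threshold 0.05), tested on simulated data. Shares were compared by exact permutation over libraries. Depth is known only as an estimate.

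Named regions were the 10 best-ranked specific regions and the 10 smallest p-values in each direction (all, and unique sequence), up to 4 genes per list and direction, every call in a list, and 11 promoters. Members and lists were chosen with earlier results of these data known. Alternatives on fragment length, pileup centring, unique sequence and called peaks of the other group were chosen after seeing the data. A few of the regions so chosen are not reported here.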

Additional observations from a re-analysis of the deposited data

How the results depend on the processing

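Corpse-specific regions numbered 10701 with all called peaks, 1087 with lists 2 times shorter, 3304 with windows of 100 bp around summits, 3477 in NonPhago libraries only and 1141 with peaks under 137 bp dropped, and 2974 to 4291 with 1 library left out. Mix-specific regions numbered 644 with all called peaks, 2167 with shorter lists, 363 with no called corpse peak of any rank, and 4753 to 10130 with 1 library left out. Higher and lower limma calls were 1454 and 2531 on recovered pileups, 1616 and 6732 on pileups centred on the median, 77 and 115 without trend and robust priors, and 14 to 922 and 7 to 1079 with 1 library left out, and lower calls were 1093 with median centring. With the replicate number as a block they were 1387 and 1611. Same-numbered libraries did not deviate together (correlations 0.00774 and 0.0298), so they share only a number, and 1 of the 40 calls in gene lists was lost under the block. Leaving out 1 library gave 2.67 to 3.64 points for AP-1, −1.81 to −0.858 for promoters, −0.03 to −0.013 for direct repeats, −0.0654 to −0.0115 for clearance genes, 0.067 to 0.0811 for the Jaccard difference, and 1.74 to 6.41 and −28.6 to −3.55 for cKO corpse-specific and mix-specific regions in WT libraries. With all called peaks AP-1 turned to −1.4, cKO mix-specific regions in WT libraries to 9.45 and direct repeats to 0.00796, which also turned to 0.00652 with peaks under 137 bp dropped. The cause was not tested. Groups of 3 and 2 libraries, and an estimated depth of 8430000 fragments in corpse library 2, limit what can be detected.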

Other observations

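A few of the regions that separated the stimuli in Rxra cKO cells were also measured in Rxra WT cells given corpses treated with bromoenol lactone (BEL), which blocks the enzyme that makes LPC, and in cells kept in medium. The Anp32e promoter, without a peak in any untreated corpse library of either genotype, had pileups of 122, 66, 116 and 123 in the 4 BEL libraries, against 112 and 92 in the cKO mix libraries, and no peak in either WT mix library. The Mt2 promoter had 36, 25, 48 and 66 in BEL libraries and 66 and no peak in WT mix libraries, against no peak, no peak, 18 and 11 in WT corpse libraries. The Txnrd1 region had 33, 15, 33 and 43 in BEL libraries and 74 and no peak in WT mix libraries, against 4, 7, 21 and 11 in WT corpse libraries. In the 4 shallow medium libraries, 2, 4, 3 and 4 of the 10 best-ranked corpse-specific and 8, 8, 5 and 7 of the 10 best-ranked mix-specific regions had a peak, but of the 10 best mix-specific regions of unique sequence 1, 1, 0 and 0 did. The Srxn1 region had folds of 16.0, 17.2, 16.8 and 16.4 in BEL libraries, between the cKO corpse and the cKO mix values. The BEL libraries had shortest peaks of 144 to 145 bp and so resembled the mix libraries in this length, and the part of fragment length in these values was not tested.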
